A study of Mus musculus with 6 samples.

Results

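The histone genes of mouse double-positive thymocytes were described across 6 libraries, 3 from control mice and 3 from KANSL1-deficient mice. The members were the protein-coding genes of the deposited count table whose symbol starts with H1f, H1-, H2ac, H2bc, H3c, H4c, H2az, H2ax, H2aj, H2aw, H3f3 or H4f16, which gave 66 of the 29626 genes listed. Of these, 57 are replication-dependent genes (6 H1, 12 H2A, 17 H2B, 10 H3 and 12 H4 genes) and 9 are replacement or variant genes (H1f0, H1f8, H1f10, H2ax, H2aj, H2az1, H2az2, H3f3a and H3f3b). Enough counts for a test were present for 51 members, 43 replication-dependent and 8 replacement or variant, among 15353 genes tested.

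CD4+CD8+ double-positive cells are the thymocyte stage at which T-cell receptor alpha chains are rearranged, and they were sorted by flow cytometry from the thymus of mice aged 8 weeks. Control mice were Kansl1fl/fl littermates without Cre, which the labels also call WT, and KANSL1-deficient mice were Kansl1fl/fl CD4-Cre. Both groups therefore carried the floxed alleles, and only the deficient group carried Cre, under the Cd4 promoter, so that an effect of Cre itself and an effect of Kansl1 loss cannot be told apart. KANSL1 is a scaffold subunit of the NSL complex, which carries the histone H4 acetyltransferase MOF. RNA was selected with poly-T beads before sequencing.

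Histones package DNA into nucleosomes, with H2A, H2B, H3 and H4 in the core and H1 on the linker. Replication-dependent histone genes lie in clusters, are expressed mainly in S phase and give intronless mRNAs that usually end in a short stem-loop, bound by SLBP, in place of a poly(A) tail. Replacement and variant histones such as H3.3, H2A.Z, H2A.X and H1.0 come from single genes outside those clusters, and most of their mRNAs are polyadenylated and made throughout the cell cycle. In the thymus, cells divide rapidly as they become double-positive and then stop dividing while the alpha chain is rearranged.

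The stem-loop is shown first because mRNAs that end in it normally lack the tail that poly-T selection catches. In the protein-coding transcripts of GENCODE M21 (GRCm38), 41 of the 65 members with a transcript (63.1%) held a 16-base stem-loop that opens with GG, has TT at the start of its 4-base loop and pairs its first 6 bases with its last 6, against 89 of 21836 other protein-coding genes (0.408%). It was found in 40 replication-dependent genes and, among the replacement and variant genes, in H2ax. The most frequent forms were these, read 5′ to 3′ with the paired stem in capitals.
23 genes of the H1, H2A, H2B and H3 families: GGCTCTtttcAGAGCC
7 genes, all H4: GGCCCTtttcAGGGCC
6 genes of the H1, H2B and H3 families: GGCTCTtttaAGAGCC
2 genes, H4c9 and H4c14: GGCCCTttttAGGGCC
H2ax: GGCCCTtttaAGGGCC
The stem of H2ax had the letters of the common H4 stem, with another loop. Several transcript models ran on past the stem-loop, by 840 bases in H1f2, 822 in H2ax, 2010 in H2ac6, 752 in H3c4 and 155 in H2bc8. No such stem-loop was found in the models of H1f1, H1f5, H2bc4, H2az1, H3f3a or H3f3b.

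Promoter windows from RefSeq (GRCm38.p6, 250 bases before to 50 after the start) matched 55 of the 66 members. Among the 47 replication-dependent genes matched, 40 (85.1%) held CCAAT on either strand and 29 (61.7%) held TATAAA, against 37.4% and 13.6% of all 32851 promoters. The octamer ATTTGCAT was in 4 of 11 H2A and 5 of 12 H2B windows and in no window of the replication-dependent H1, H3 or H4 genes, against 1.74% of all promoters. Among the 8 replacement and variant genes matched it was in the window of H3f3b. The octamers of the H2A windows all lay on the opposite strand and those of the H2B windows all on the same strand. Windows of neighbouring genes can overlap: those of H2ac8 and H2bc8 hold the same octamer, which is counted in both families. Of the 6 replication-dependent H1 genes, 5 held AAACACA, the core of the H1 box, against 7.18% of all promoters. CCAAT was in every matched window of the replication-dependent H1, H2A, H2B and H3 genes and in 3 of the 10 H4 windows. The 5 windows printed belong to genes that passed the test below, 1 from each replication-dependent core or linker family represented among them and 1 variant, and the capitals mark those motifs on either strand.
H2bc8, chr13:23571150-23571449, plus strand: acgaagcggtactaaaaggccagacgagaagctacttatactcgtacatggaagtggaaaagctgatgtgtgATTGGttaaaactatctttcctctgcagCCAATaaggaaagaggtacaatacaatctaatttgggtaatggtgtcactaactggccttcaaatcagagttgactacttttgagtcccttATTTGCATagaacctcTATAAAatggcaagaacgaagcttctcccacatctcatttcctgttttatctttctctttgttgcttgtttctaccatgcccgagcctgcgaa
H2ac6, chr13:23683910-23684209, minus strand: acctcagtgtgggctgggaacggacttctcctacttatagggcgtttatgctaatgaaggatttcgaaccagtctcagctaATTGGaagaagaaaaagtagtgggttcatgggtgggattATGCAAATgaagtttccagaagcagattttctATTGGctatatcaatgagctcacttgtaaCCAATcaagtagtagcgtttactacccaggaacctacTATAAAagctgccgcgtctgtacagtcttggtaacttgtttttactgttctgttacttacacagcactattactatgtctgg
H1f2, chr13:23738557-23738856, plus strand: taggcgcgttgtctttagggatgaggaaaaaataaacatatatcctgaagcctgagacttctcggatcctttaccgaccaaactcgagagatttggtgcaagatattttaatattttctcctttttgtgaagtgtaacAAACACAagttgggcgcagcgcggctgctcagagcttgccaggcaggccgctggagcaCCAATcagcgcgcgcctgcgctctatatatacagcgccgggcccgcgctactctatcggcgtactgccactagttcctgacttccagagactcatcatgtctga
H3c4, chr13:23575513-23575812, plus strand: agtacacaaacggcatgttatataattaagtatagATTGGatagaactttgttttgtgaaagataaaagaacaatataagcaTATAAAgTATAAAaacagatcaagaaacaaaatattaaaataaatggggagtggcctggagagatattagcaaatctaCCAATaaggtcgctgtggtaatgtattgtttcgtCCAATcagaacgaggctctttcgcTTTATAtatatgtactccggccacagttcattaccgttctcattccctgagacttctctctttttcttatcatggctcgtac
H2az1, chr3:137864237-137864536, plus strand: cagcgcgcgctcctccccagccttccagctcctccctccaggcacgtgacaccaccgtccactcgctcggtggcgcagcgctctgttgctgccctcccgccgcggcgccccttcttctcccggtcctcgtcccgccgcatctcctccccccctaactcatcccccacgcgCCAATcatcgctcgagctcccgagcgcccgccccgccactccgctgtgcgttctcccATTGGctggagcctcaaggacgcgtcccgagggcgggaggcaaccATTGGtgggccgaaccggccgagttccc
In H2bc8 the octamer began 59 bases and TATAAA 43 bases before the start, and the window shares 279 bases with that of its divergent neighbour H2ac8. In H2ac6 the octamer lay 130 bases before the start on the opposite strand. The AAACACA of H1f2 lay 112 bases before its start and a CCAAT 54 bases before it. H3c4 held no octamer but 3 TATAAA matches. The nearest, 32 bases before the start, was on the opposite strand, and those 161 and 168 bases before it were on the same strand. H2az1 held 3 CCAAT matches and neither TATAAA nor the octamer. Each match is a run of letters and was not tested for binding.

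Histone genes were higher, never lower, in KANSL1-deficient cells where they passed the test. Of the 51 members tested, 12 rose at an adjusted p under 0.05 in edgeR's quasi-likelihood test and 0 fell, while 3.85% of all tested genes rose and 2.91% fell, 6.76% in all. Among the replication-dependent genes 9 of 43 rose (20.9%): the linker histone genes H1f1, H1f2, H1f3 and H1f5, the H2A gene H2ac6, the H2B genes H2bc4, H2bc6 and H2bc8, and the H3 gene H3c4. Among the replacement and variant genes 3 of 8 rose (37.5%): H2ax, H2az1 and H3f3a. The log2 fold change was above 0 for 41 of the 43 replication-dependent genes with a median of 0.89 (range −0.32 to 2.63), and above 0 for 6 of the 8 others with a median of 0.31. Over all genes tested the median was −0.02 and 48.2% lay above 0. In 33 of the 51 tested members every deficient library lay above every control library and in 0 below, against 14.6% and 14.0% of all tested genes. H2bc12 (7 counts in controls against 42), H2ac7 (14 against 41) and H2bc13 (22 against 45) passed the count filter only through their deficient libraries. Other members did not reach the filter's level in every control library and also needed deficient libraries to pass. Among these were H2bc11, H3c3, H3c8, H3c15, H4c1, H4c12 and H4c17. H3c4 (26, 23 and 5 counts in controls), which is among the 12 that rose, was another. All of them are included in these counts, which lean toward higher members to that extent. With no filter 55 of the 57 replication-dependent genes lay above 0 with a median of 0.89, against −0.01 over all genes. Replicates are separate mice by their titles. In bulk RNA, more cells in S phase and more histone mRNA per cell cannot be told apart.

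**Figure D1:**
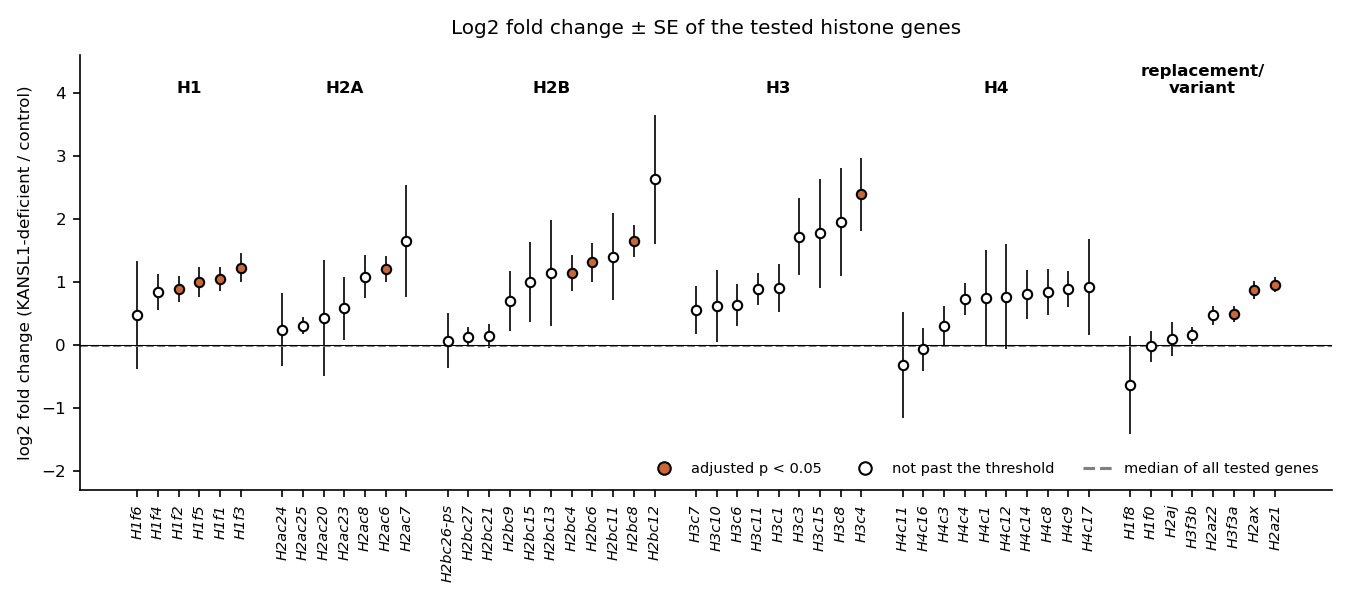
Log2 fold change of each tested histone gene, KANSL1-deficient over control, with its standard error from edgeR, ordered within each family. Filled points mark the 12 genes with an adjusted p under 0.05, all above 0, and the dashed line is the median of all tested genes at −0.02.

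The calls rested on low counts in many members and on 3 mice a group. The count of replication-dependent genes that rose was 2 to 5 when any single library was left out, lowest without deficient replicate 2 (2) and deficient replicate 1 (3) and 5 without any of the other 4. H2ac6, H2bc8, H2ax and H2az1 passed the threshold under all 15 alternatives tried. With library totals in place of TMM, 27.7% of all calls were higher in deficient cells against 56.9% here and the median of all genes moved to −0.17, and 9 replication-dependent genes still rose.

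Of the 6 replication-dependent linker histone genes 4 rose, a count that was 0 without deficient replicate 2, 1 without deficient replicate 1, 2 without control replicate 1 and 3 without any of the other libraries. H1f2, which encodes H1.2, had the highest level of the linker genes, at 615, 722 and 377 CPM (counts per 1000000, scaled by TMM) in the control libraries and 1276, 946 and 955 in the deficient ones. The controls spread widely, with replicate 3 lowest, yet the groups did not overlap. The mean was 572 ± 177 (SD, n = 3) in controls and 1059 ± 188 in deficient cells, a log2 fold change of 0.89 (SE 0.21, adjusted p = 0.0268). The gene lies at chr13:23922791-23924350 on the plus strand (GRCm39, as all gene positions here unless a promoter window is given).

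H1f1, encoding H1.1, stood at 15.1, 21.1 and 16.3 CPM in controls and 33.6, 36.3 and 38.4 CPM in deficient cells. Its groups were well apart, and the log2 fold change was 1.04 (SE 0.20, adjusted p = 0.0107). H1f3, encoding H1.3, stood at 8.98, 11.6 and 8.34 CPM against 24.9, 23.6 and 19.3 CPM, a log2 fold change of 1.23 (SE 0.23, adjusted p = 0.0112). H1f5, encoding H1.5, stood at 10.1, 10.5 and 8.04 CPM against 16.01, 18.5 and 22.9 CPM, a log2 fold change of 1.00 (SE 0.24, adjusted p = 0.0289). H1f5 no longer passed when any single library was left out (adjusted p = 0.0517 to 0.108). In none of the 3 genes did a deficient library reach down to a control library. H1f4, encoding H1.4, did not pass: its libraries were at 6.81, 8.09 and 4.79 CPM against 9.43, 13.2 and 12.6 CPM, without overlap, with a log2 fold change of 0.84 (SE 0.29, adjusted p = 0.101, or 0.0449 in DESeq2). The testis gene H1f6 had an adjusted p of 0.818 at a log2 fold change of 0.47. Summed over the 6 genes, H1 was 657, 774 and 415 CPM in controls and 1360, 1039 and 1049 CPM in deficient cells, 1.87 times the control mean.

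Among the replication-dependent H2A genes, 1 of 7 tested rose. H2ac6 (chr13:23865450-23867931, minus strand) stood at 9.85, 12.5 and 10.5 CPM in controls and 24.95, 26.1 and 24.3 CPM in deficient cells, with very little spread in the deficient group. The means were 10.9 ± 1.38 and 25.1 ± 0.878 CPM (SD, n = 3), and the log2 fold change was 1.20 (SE 0.21, adjusted p = 0.00728). H2ac8 had a log2 fold change of 1.08 (SE 0.34) and missed the threshold at an adjusted p of 0.0764 (0.0293 in DESeq2), with control libraries at 2.80, 4.70 and 3.78 CPM and deficient libraries at 5.85, 8.71 and 9.40 CPM. H2ac25, the H2A gene with the most counts, stood at 174, 139 and 152 CPM against 199, 199 and 177 CPM, a log2 fold change of 0.31 (SE 0.13, adjusted p = 0.186) without overlap. It lies wholly within the annotated span of Trim17 on the same strand, so reads of both genes may not be fully separable.

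Of the 11 H2B genes tested, 3 rose. H2bc8 (chr13:23755570-23756187, plus strand) stood at 4.10, 4.75 and 5.18 CPM in controls and 14.3, 15.2 and 14.6 CPM in deficient cells. The deficient libraries lay far above the controls with almost no spread, and the log2 fold change was 1.65 (SE 0.25, adjusted p = 0.00532). H2bc4 stood at 5.46, 7.78 and 5.93 CPM against 17.9, 10.9 and 13.4 CPM, a log2 fold change of 1.14 (SE 0.28, adjusted p = 0.0333). H2bc6 stood at 3.19, 5.76 and 4.52 CPM against 9.38, 13.2 and 10.8 CPM, a log2 fold change of 1.31 (SE 0.31, adjusted p = 0.029). Neither H2bc4 nor H2bc6 passed when any single library was left out. The annotated span of H2bc6 overlaps that of H1f4 by 496 bases on the same strand.

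The H2B genes with the most counts differed little between the groups. H2bc27, on chromosome 11 away from the large clusters, stood at 251, 403 and 339 CPM in controls and 394, 346 and 345 CPM in deficient cells, with the groups overlapping. Its log2 fold change was 0.13 (SE 0.16, adjusted p = 0.715), and its sign turned when library totals replaced TMM. H2bc21 stood at 43.2, 33.3 and 46.3 CPM against 42.8, 55.0 and 37.6 CPM, a log2 fold change of 0.14 (SE 0.19, adjusted p = 0.745) whose sign turned likewise. The highest log2 fold change among the tested members, 2.63 (SE 1.03, adjusted p = 0.148) in H2bc12, rested on 7 counts in controls against 42 in deficient cells.

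Replication-dependent H3 genes were low in these libraries, and 1 of 9 tested rose. H3c4 (chr13:23759937-23761185, plus strand) stood at 1.26, 1.01 and 0.220 CPM in controls and 3.54, 4.85 and 4.70 CPM in deficient cells. All deficient libraries were above all controls, on 269 counts against 54, and the log2 fold change was 2.39 (SE 0.58, adjusted p = 0.0307). It passed in 1 of the 6 fits with a library left out, that without control replicate 1. H3c11, the H3 gene of this class with the highest level, stood at 8.45, 7.91 and 7.29 CPM against 13.1, 12.7 and 18.00 CPM, with a log2 fold change of 0.89 (SE 0.25) and an adjusted p of 0.054 (0.0123 in DESeq2). In 8 of the 9 genes the deficient libraries were all above the controls, against 14.6% of all tested genes. Of these genes, H3c3, H3c4, H3c8 and H3c15 needed deficient libraries to pass the count filter, so this count leans toward higher members. The summed H3 level was 20.2, 20.2 and 23.4 CPM in controls and 40.6, 38.9 and 47.5 CPM in deficient cells, 1.99 times the control mean.

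No H4 gene passed the test among 10 tested. At an unadjusted p under 0.05 there were 3, DESeq2 called 2 (H4c4 and H4c9) and limma-voom 0. H4c4 stood at 21.2, 16.7 and 15.2 CPM in controls and 22.4, 24.5 and 41.2 CPM in deficient cells, where replicate 3 stood far above the other 2, and its log2 fold change was 0.73 (SE 0.26, adjusted p = 0.105). H4c9 stood at 5.89, 11.9 and 9.93 CPM against 19.3, 17.3 and 14.8 CPM, a log2 fold change of 0.89 (SE 0.28, adjusted p = 0.0782). H4c8 stood at 2.08, 3.12 and 2.81 CPM against 5.35, 4.52 and 4.45 CPM, a log2 fold change of 0.84 (SE 0.37, adjusted p = 0.198). The groups of these 3 genes did not overlap. The signs of H4c11 (−0.32, adjusted p = 0.877) and H4c16 (−0.07, adjusted p = 0.937) were negative. Summed over the 12 genes, H4 stood at 44.3, 48.9 and 44.7 CPM against 66.3, 75.0 and 79.1 CPM, 1.60 times the control mean. Whether the H4 genes differ from the other families was not tested.

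**Figure D2:**
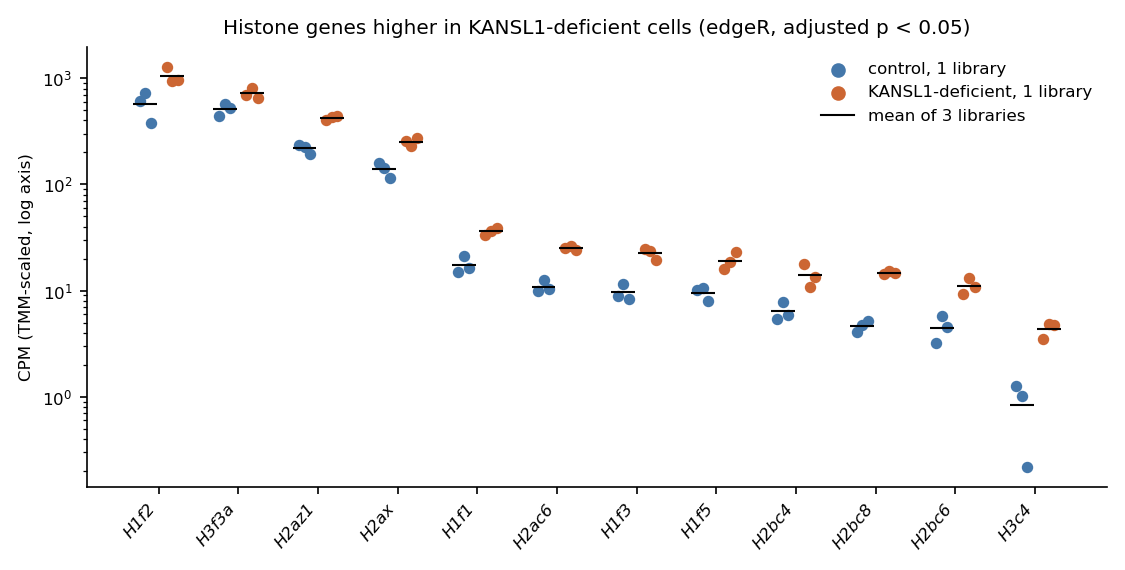
CPM (log axis) of the 12 histone genes with an adjusted p under 0.05, each point 1 library and each line the mean of 3 libraries. In each gene every KANSL1-deficient library lies above every control library, from H1f2 at 572 against 1059 CPM to H3c4 at 0.829 against 4.36 CPM.

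Of the H2A variant genes, H2az1 and H2ax rose with little spread. H2az1, which encodes H2A.Z.1, a variant found at promoters and enhancers, stood at 236, 227 and 195 CPM in controls and 404, 427 and 444 CPM in deficient cells (chr3:137570248-137572683, plus strand). The means were 219 ± 21.4 and 425 ± 19.9 CPM (SD, n = 3), a log2 fold change of 0.95 (SE 0.12, adjusted p = 0.00324), the smallest adjusted p of any member. H2ax, whose product is phosphorylated around DNA breaks, stood at 159, 142 and 115 CPM against 256, 230.3 and 273 CPM (chr9:44245991-44247374, plus strand). Its means were 138 ± 22.0 and 253 ± 21.4 CPM, with a log2 fold change of 0.87 (SE 0.14, adjusted p = 0.00648). In both genes the lowest deficient library was far above the highest control. H2az2, which encodes H2A.Z.2, stood at 146, 212 and 165 CPM against 251, 227 and 246 CPM. Its groups did not overlap, but its log2 fold change of 0.47 (SE 0.15) missed the threshold at an adjusted p of 0.077. DESeq2 called it (adjusted p = 0.0221).

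The 2 genes of H3.3, the H3 protein deposited outside replication, did not give the same call. H3f3a stood at 437, 575 and 527 CPM in controls and 701, 804 and 658 CPM in deficient cells (chr1:180628397-180641508, minus strand). The means were 513 ± 70.1 and 721 ± 75.3 CPM, and the log2 fold change of 0.49 (SE 0.13) passed narrowly, at an adjusted p of 0.0482. It no longer passed when any single library was left out, and its span overlaps that of the antisense gene H3f3aos by 168 bases. H3f3b, the member with the most counts here, stood at 6829, 8831 and 7742 CPM against 9919, 8505 and 7587 CPM (chr11:115912738-115918788, minus strand). The groups overlapped, with deficient replicate 3 below the control mean, and the log2 fold change was 0.15 (SE 0.13, adjusted p = 0.558). The difference between the 2 genes was not itself tested.

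The other replacement genes did not pass. H1f0, the linker histone of non-dividing cells, stood at 35.1, 78.6 and 60.3 CPM in controls and 56.4, 49.8 and 65.6 CPM in deficient cells, a log2 fold change of −0.02 (SE 0.24, adjusted p = 0.978) whose sign turned under other settings. The control libraries were more spread than the deficient ones. H2aj stood at 17.1, 19.6 and 13.9 CPM against 11.2, 21.7 and 21.0 CPM, with overlapping groups, and its log2 fold change of 0.09 (SE 0.27, adjusted p = 0.898) turned negative with library totals. The oocyte linker gene H1f8 stood at 2.51, 0.483 and 1.23 CPM against 1.42, 0.330 and 0.950 CPM, a log2 fold change of −0.64 (SE 0.78, adjusted p = 0.703) that turned to 0.05 without control replicate 1. H1f10 did not have enough counts for a test.

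Levels were compared between genes per transcript length, as FPKM (fragments per kilobase and library size) in the authors' deposited table. H3f3b was highest by far with a mean of 2759 FPKM over the 6 libraries, and no library of any other member reached its lowest value. H2bc27 (562 FPKM) and H1f2 (514 FPKM) followed and did not differ beyond their spread, with H2bc27 the higher in controls (566 against 386 FPKM) and H1f2 in deficient cells (643 against 559 FPKM). Next came H2az1 (179), H3f3a (175), H2ax (139.5) and H2az2 (126 FPKM), whose ranges overlapped from each gene to the next. Of these, H3f3a was above H2az1 in controls (154 against 130.2 FPKM) and below it in deficient cells (195 against 227 FPKM). H2ac25 (80.5 FPKM) came next, with all libraries below those of H2az2 and above those of H1f1 (35.6 FPKM), though its highest library overlapped with the lowest of H2ax. H1f0 (28.1), H3c11 (26.99), H4c4 (20.5) and H1f5 (19.03 FPKM) came after H1f1 in overlapping steps. The H4 gene with the highest FPKM was thus far below the H2B and H1 genes with the highest FPKM in these poly-T-selected libraries. How much of each mRNA the beads caught was not measured, so the order may not be that of the mRNAs in the cell. FPKM also depends on the length of the model. H1f3 (7425 bases) and H1f5 (743 bases) had 9.66 and 9.54 CPM in controls but 1.37 and 13.5 FPKM.

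**Figure D3:**
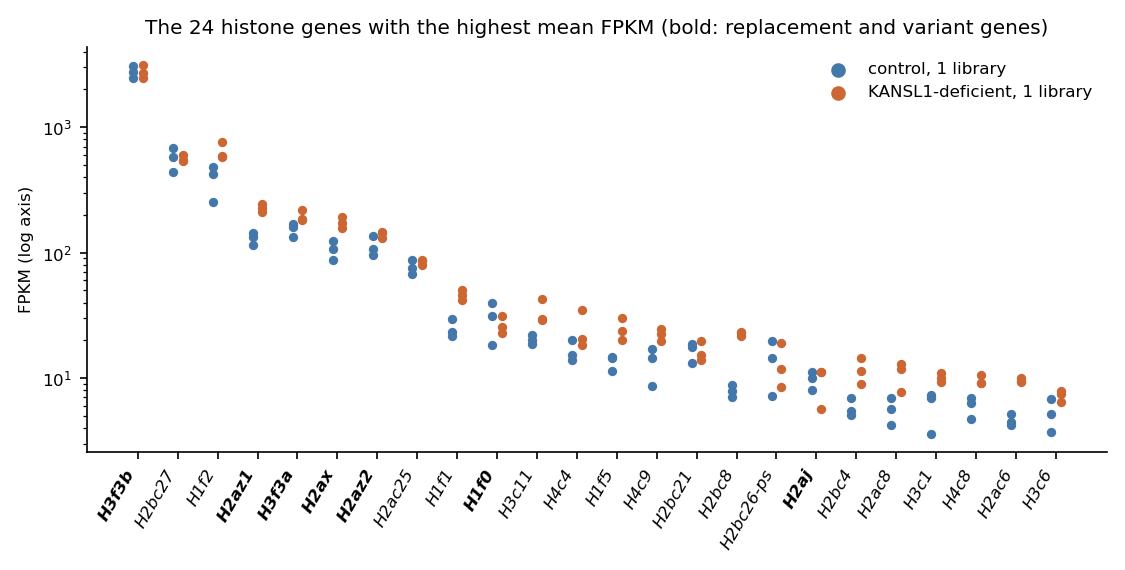
FPKM (log axis) of the 24 histone genes with the highest mean level, each point 1 library, in order of the mean and with replacement and variant genes in bold. H3f3b stands alone at a mean of 2759 FPKM, followed by H2bc27 and H1f2 at 562 and 514 FPKM.

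H3f3b made up 75.1%, 76.4% and 78.3% of all histone CPM in the controls and 71.9%, 70.2% and 68.2% in the deficient libraries. H1f2 made up 6.77%, 6.25% and 3.82% against 9.25%, 7.81% and 8.58%. The shares of H3f3b in deficient cells were thus all below, and those of H1f2 all above, the control shares. The 57 replication-dependent genes together stood at 1228, 1470.0 and 1064 CPM in controls and 2193, 1849 and 1834 CPM in deficient cells, 1.56 times the control mean. Without the 3 genes with the most counts, H1f2, H2bc27 and H2ac25, which were picked after their levels were seen, the other 54 stood at 187, 206 and 195 CPM against 324, 358 and 358 CPM, 1.77 times the control mean. These sums are descriptions with no test. H2B was the replication-dependent family with the smallest ratio, 1.16, and its groups overlapped (314, 466 and 410.1 against 490, 457 and 438 CPM). That sum is mostly H2bc27: the other 16 H2B genes stood at 62.96, 62.97 and 71.5 CPM against 95.5, 111 and 93.1 CPM, 1.52 times the control mean, and the tested H2B genes had a median log2 fold change of 1.14. That H2B median is the value of H2bc13, which rested on 22 counts in controls and 45 in deficient cells. The H2A sum was 1.33 times the control mean.

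**Figure D4:**
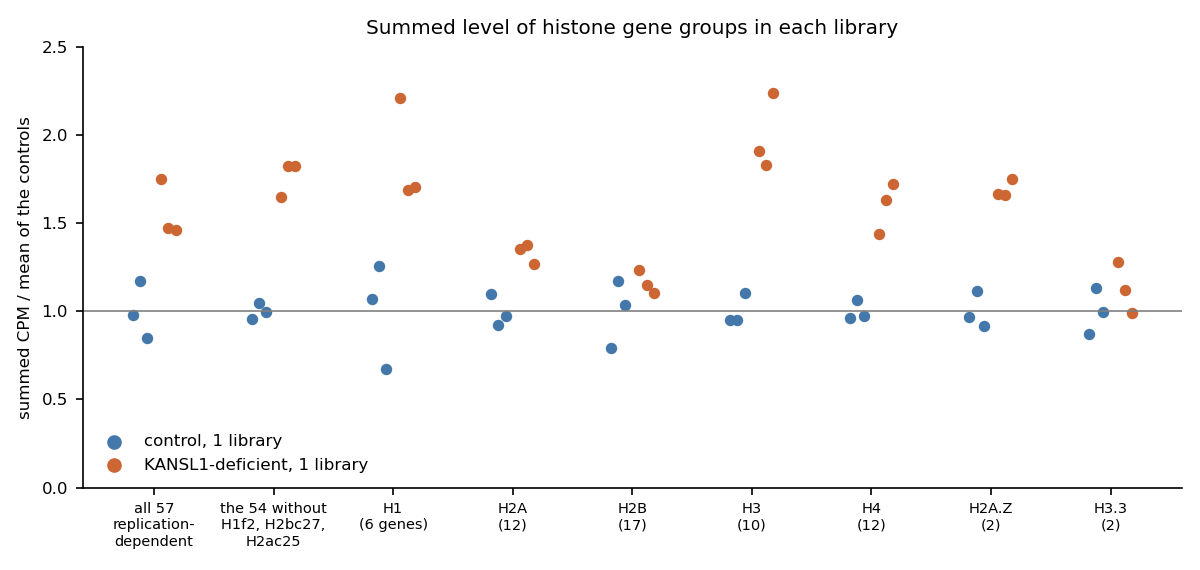
Summed CPM of each histone gene group divided by the mean of the 3 controls, each point 1 library, on a linear axis from 0. H3 (1.99), H1 (1.87), H2A.Z (1.69) and H4 (1.60) have deficient means well above 1 with no overlap, while H2B (1.16) and H3.3 (1.13) overlap with the controls.

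The 15 members without enough counts for a test each had at most 49 counts over all 6 libraries. Together they held 128 counts in controls and 319 in deficient cells, and all 15 had more counts in the deficient group. Their summed level was 2.61, 2.07 and 1.19 CPM in controls and 4.18, 4.33 and 7.10 CPM in deficient cells. The same count was not made for the other genes too low to test, so how unusual it is cannot be read. At these counts no single gene of the 15 can be read.

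Most of the genes that rose lie in 1 block of chromosome 13. The block at chr13:23715220-23948389 holds 27 members, of which 22 were tested and 8 rose (36.4%), and all 22 had a log2 fold change above 0 with a median of 0.97. The block at chr13:21899933-22021700 holds 18 members, of which 10 were tested and 1 rose, H1f5, with a median of 0.83. In the small block at chr13:22220040-22227846, 0 of 3 tested genes passed in edgeR, with 2 at an unadjusted p under 0.05, 1 called by DESeq2 and a median of 1.40. That median is the value of H2bc11, which rested on 36 counts in controls and 88 in deficient cells. Both H2bc11 and H2bc12 of this block needed deficient libraries to pass the count filter, so its median leans upward. Outside chromosome 13, the 4 genes of chr3:96127677-96170627 had a median of 0.61 and the 3 of chr11:58839746-58847656 a median of 0.13. None of these 7 was called by edgeR, DESeq2 or limma-voom, and 1, on chromosome 11, had an unadjusted edgeR p under 0.05. Of all tested genes 3.85% rose and 6.76% were called in either direction, so 0 calls among 3 or 7 genes do not set those blocks apart. The blocks were not tested against each other. Hfe, an iron-regulating gene inside the largest block and no histone gene, had a log2 fold change of 1.54 on 244 counts (adjusted p = 0.281).

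**Figure D5:**
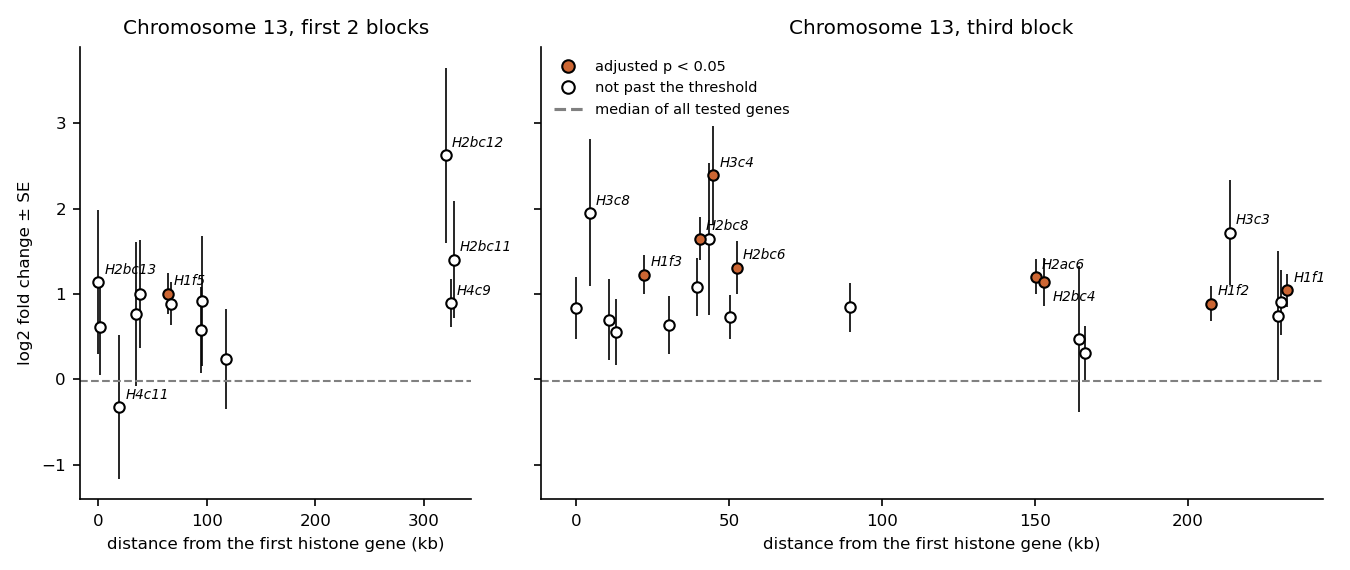
Log2 fold change with its standard error of the tested histone genes of chromosome 13 against distance in kb from the first histone gene of the panel, the left panel holding the first 2 blocks and the right panel the 27-member block. In the right panel all 22 points lie above 0 and 8 are filled (adjusted p under 0.05), and in the left panel H1f5 is the filled point and H4c11 lies below 0.

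Replication-dependent genes often stand head to head and share a promoter region. Of 12 such divergent pairs with starts within 1000 bases, both genes were tested in 5. In 1 of them both rose in edgeR's test: H2ac6 (1.20) and H2bc4 (1.14), 250 bases apart. H2ac8 (1.08, adjusted p = 0.0764) and H2bc8 (1.65, adjusted p = 0.00532) lie 175 bases apart, and H2ac8 missed the threshold in edgeR but passed in DESeq2 (adjusted p = 0.0293). Their difference was not tested. The log2 fold changes of the other 3 pairs were 0.06 and 0.31 for H2bc26-ps and H2ac25, 0.70 and 0.55 for H2bc9 and H3c7, and 0.42 and 0.14 for H2ac20 and H2bc21.

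Sequence sharing limits single-gene values in these families. The median replication-dependent gene shared 45.0% of its 50-base windows with another member, and 23 of 56 shared over 50%. For the 12 members that rose the median was 7.3% and the highest share 49.7% (H2bc8). Those 12 include the variant genes H2ax (6.1%), H2az1 (0.0%) and H3f3a (0.0%), so the 2 medians are of unlike sets. The share is taken over whole models, with bases past the stem-loop, as in H1f3 (7425 bases, 2.2%). How reads matching several genes were assigned is not stated in the labels or file headers.

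The members were also grouped by the end of their transcript models. Among the replication-dependent genes, 19 had models that end within 100 bases of the stem-loop, 21 had models that run on further, and 17 had no stem-loop in a model. Some of those 17 models are short, such as 312 bases in H4c12 and 393 in H2ac13, and may stop before a stem-loop. H2bc26-ps, also among them, had no transcript to search. The last set thus reflects the annotation and is not shown to be a kind of mRNA end. Of the first kind 0 of 10 tested passed in edgeR, with 4 at an unadjusted p under 0.05, 0 called by DESeq2 and a median log2 fold change of 0.91. Of the second kind 6 of 21 rose with a median of 0.81, and of the last 3 of 12 with a median of 0.94. The genes whose models end early summed to 11.4, 15.1 and 12.8 CPM in controls and 23.8, 23.8 and 29.5 CPM in deficient cells, and those that run on to 1128, 1362 and 957 against 2034, 1676 and 1659 CPM. The libraries differed in order between these sets of models. Deficient replicate 3 was the highest of its group in 10 of the 19 early-ending genes and in 3 of the 21 that run on. It was highest in 9 of the 17 with no stem-loop found. The 100-base limit was chosen after the data were seen, and whether the share of histone mRNA caught by poly-T beads differed between the groups was not tested.

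The factors that make and carry histones moved in part. In a list for histone gene transcription and mRNA 3′ end formation, 2 of 16 tested genes rose, 0 fell and the median log2 fold change was 0.04. These were Slbp, the stem-loop binding protein, and Cstf2, a cleavage factor subunit (0.60, adjusted p = 0.0289). Slbp stood at 216, 204 and 164 CPM in controls and 397, 338 and 309 CPM in deficient cells, a log2 fold change of 0.84 (SE 0.14, adjusted p = 0.00728). In a list for histone mRNA translation and decay edgeR called 0 of 10 with a median of −0.00, and there were 3 at an unadjusted p under 0.05, 2 called by DESeq2 and 0 by limma-voom. Of 17 replication-coupled chaperone genes 4 rose, with a median of 0.27: Chaf1a (1.70, adjusted p = 0.00644) of the CAF-1 complex, Asf1b (1.45, adjusted p = 0.00554), Rbbp7 (0.61, adjusted p = 0.0314) and Nap1l1 (0.59, adjusted p = 0.0254). Of 19 genes for variant deposition 3 rose, with a median of 0.06, among them Anp32e (0.74, adjusted p = 0.00648), which removes H2A.Z, and Dek (0.57, adjusted p = 0.0482), an H3.3 chaperone. Cenpa, the centromeric H3 outside the symbol rule, stood at 59.9, 65.3 and 66.1 CPM in controls and 155, 156 and 150.1 CPM in deficient cells, a log2 fold change of 1.27 (SE 0.13, adjusted p = 0.00255). Macroh2a1 had a log2 fold change of −0.03 (adjusted p = 0.943).

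Cell-cycle genes moved with the histone genes. In a list of S-phase genes 14 of 24 rose, against 3.85% of all tested genes. All 24 had a log2 fold change above 0 with a median of 1.03. Their summed level was 1398 to 1657 CPM in controls and 2553 to 2784 CPM in deficient cells. In a list of mitosis genes 15 of 15 rose with a median of 1.90, from a summed 268 to 494 CPM in controls to 1097 to 1318 CPM in deficient cells. Markers of the earlier double-negative stage, 1 of 6 of which rose (Mef2c, not called by DESeq2 or limma-voom), summed to 45.9 to 55.8 CPM in controls and 60.4 to 76.4 CPM in deficient cells. Such a rise was not particular to the earlier stage. Markers of later single-positive cells summed to 30.4 to 39.0 CPM in controls and 41.0 to 54.7 CPM in deficient cells. Markers of gamma-delta T, NK and NKT cells summed to 20.5 to 25.6 against 25.7 to 30.8 CPM. Dendritic-cell markers went the other way, at 3.21 to 4.59 against 1.79 to 2.60 CPM, and the remaining lists of other cells overlapped. The part of dividing, earlier or other cells in the histone values was not tested.

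Library totals were 19361968 to 22459830 counts. The targeted gene, Kansl1 (chr11:104224055-104359687), stood at 213, 188 and 229.8 CPM in controls and 145, 168 and 188 CPM in deficient cells, a log2 fold change of −0.33 (SE 0.14, adjusted p = 0.171), so whole-gene counts did not separate the genotypes at the threshold. Markers of the double-positive stage were abundant, as all 9 were tested and together gave 12605 to 13098 CPM in controls and 14867 to 16537 CPM in deficient cells, with 3 that rose, Rag2 and Dntt among them. The 8 lists of markers of other cells each summed to between 1.79 and 76.4 CPM, and edgeR called 1 of their 26 tested genes higher and 0 lower. DESeq2 instead called 1 dendritic-cell marker, Zbtb46, which was lower in deficient cells (2.77 against 0.828 CPM, edgeR adjusted p = 0.0874). No marker was at 0 in all libraries, but Pax5 of B cells, Adgre1 of macrophages and Foxn1 of thymic epithelium were near 0.

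The authors' deposited table, made with DESeq2, gives an adjusted p for 42 members. In it 18 members were higher at an adjusted p under 0.05 and 0 lower, and 9 were marked significant by the authors. All 12 members called here were among those 18, from the same counts. Of these 12, H1f2, H2ax, H2az1 and H3f3a were not marked by the authors, although their adjusted p there was under 0.05. Their log2 fold changes there were 0.89, 0.87, 0.96 and 0.49, while those of the 9 marked members ran from 1.01 (H1f5) to 2.41 (H3c4). H2ac8 was marked by the authors and not called here.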

How the data were processed

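RNA-seq libraries of sorted double-positive thymocytes, 3 control and 3 KANSL1-deficient, were analysed from the authors' deposited table. It holds read counts per gene, FPKM values, DESeq2 base means (a normalised signal), log2 fold changes, linear fold ratios and p-values made by the authors. STAR, featureCounts, DESeq2 and the GRCm39 build are named in the submitters' processing notes, without versions or options. From the counts, edgeR 4.0.16 (R 4.3.3) was run with TMM scaling on genes passing filterByExpr (minimum count 10, minimum total 15), with a robust quasi-likelihood fit over all 6 libraries, no covariates and Benjamini-Hochberg adjustment over all tested genes at 0.05. The standard error is the fold change divided by the root of F. CPM are counts per 1000000 after TMM scaling. Every member could be named. Values per library are given for members past the threshold, the tested replacement and variant members and the 3 members of each family with the highest mean FPKM. H1f4, H2ac8 and H2ac25 were added after their values were seen. The members and the gene lists were chosen with earlier results of these data known. As alternatives, library totals or DESeq2's size factors replaced TMM, the filter was dropped or raised to 5 CPM in 3 libraries, and the fit was replaced by DESeq2 1.42.0, limma-voom or limma 3.58.1 on log2(FPKM + 1) or log2(FPKM + 0.1). A replicate block was added and each library was left out. The edgeR step was tested on simulated data. Stem-loops were searched in GENCODE M21 transcripts and motifs in RefSeq promoters, both on GRCm38 and matched by gene ID or symbol, and no coordinates were converted between builds. Library pairs all differed beyond counting noise. The 5 non-coding genes with matching symbol starts were left out.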

Additional observations from a re-analysis of the deposited data

How the results depend on the processing

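The 9 replication-dependent genes that rose became 14 with DESeq2, 5 with the replicate block and 2 to 5 with 1 library left out. The 3 replacement and variant genes stayed between 2 and 4. Of all tested genes, 1038 were called, against 1729 with no filter, 2040 with DESeq2, 406 with the replicate block and 283 to 811 with 1 library left out. Same-numbered libraries did not deviate together (correlations −0.049, −0.024 and −0.095), so the labels' numbers were not taken as pairs. Of 15 alternatives, H1f1 passed in 14, H1f3 in 11, H1f2 in 10, H1f5 and H2bc4 in 8, H2bc6 in 6 and H3f3a in 5, and H3c4 in 8 of the 14 that tested it. The sign turned under at least 1 alternative in 9 of the 51 tested members, none of which passed: H2ac24, H2bc26-ps, H4c11, H4c16 and the 5 named members that follow. The log2 fold change of H1f0 was 0.037 with limma-voom and 0.047 with the replicate block, and ranged from −0.29 to 0.24 with 1 library left out, above 0 without control replicate 2 (0.24), control replicate 3 (0.00511) and deficient replicate 2 (0.073). That of H1f8 ranged from −1.13 to 0.054 and was above 0 without control replicate 1. That of H2aj was −0.052 with library totals and −0.090 and −0.10 on FPKM with pseudocounts 1 and 0.1. It ranged from −0.066 to 0.34 with 1 library left out, below 0 without control replicate 3 (−0.037), deficient replicate 2 (−0.066) and deficient replicate 3 (−0.031). That of H2bc21 was −0.0123 with library totals, −0.0122 and −0.0128 on FPKM with those pseudocounts, and −0.023 to 0.26 with 1 library left out, below 0 without control replicate 2 (−0.00899) and deficient replicate 2 (−0.023). That of H2bc27 was −0.021 with library totals and −0.050 to 0.27 with 1 library left out, below 0 without control replicate 1. The causes were not tested. Depth limits most the 15 members without a test, which had at most 49 counts each over all libraries.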
